A study of Homo sapiens with 18 samples.

Results

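The transcripts of hESC control cultures kept in normoxia (21% oxygen) were compared between 7 d and 2 h in 3 human embryonic stem cell (hESC) lines, H9, HS360 and HS401. The comparison uses 6 of the 18 arrays of the study, chosen by their labels: the 3 normoxia arrays of 7 d and the 3 normoxia arrays of 2 h, with 1 array of each line per time point. The other 12 arrays hold normoxia at 24 h and hypoxia (4% oxygen) at 2 h, 24 h and 7 d. The labels name no genetic change in these lines, and each sample is the RNA of a whole culture on a Human Exon 1.0 ST array, which reads each gene through probes in its exons. Stock cultures grew on human foreskin fibroblasts, and for the experiment cells passaged with Collagenase IV were seeded on Matrigel in mTeSR1 medium without added feeders. According to the methods, plates of the hypoxia series spent 3 days on Matrigel before a 2 h exposure, 2 days before a 24 h exposure and 1 day before a 7 d exposure. If the normoxia plates kept the same schedule, which the methods do not state in so many words, the 2 h and 24 h plates were collected about as long after seeding as each other and the 7 d plates 5 days later. Time in culture, culture density and the dilution of carried-over feeder cells therefore cannot be told apart in this comparison.

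Human ES cells are pluripotent cells of epithelial shape that keep themselves undifferentiated through FGF2 and NODAL or activin signalling, and BMP, WNT and retinoid signals lead them out of this state. Fibroblasts are mesenchymal cells that secrete interstitial collagens, small proteoglycans and matrix metalloproteinases, the enzymes that cut the matrix, and they are used as feeder layers because they supply matrix and growth factors. A culture taken from a feeder layer can carry fibroblasts along, and a stem cell colony can also form mesenchymal cells of its own by differentiation. In RNA of a whole culture, fewer cells of a type and less RNA per cell cannot be told apart.

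All values below are log2 intensities, and each difference is that of the log2 values at 7 d minus 2 h, so that a difference of 1 is a doubling. Of 23536 features tested with limma, 97 were higher at 7 d (0.412% of all tested) and 187 were lower (0.795%) at a Benjamini-Hochberg adjusted p under 0.05. Together they made up 1.21%, and 2608 features (11.1%) were at an unadjusted p under 0.05. At the study's looser thresholds (p under 0.01 without adjustment, change over 1.5-fold), 226 features were higher (0.96%) and 391 lower (1.66%), 2.62% in all. After each array was centred on its own median, the same thresholds gave 150 higher and 447 lower. The 187 lower features had a median difference of -1.13 and 111 of them fell by over 1, while the 97 higher ones had a median of 0.80 and 21 rose by over 1. All 284 moved the same way in every line. The ranges of the 3 arrays at each time did not overlap for 163 of the 187 lower features and 62 of the 97 higher ones. Over all features 4.42% lay wholly lower and 6.47% wholly higher at 7 d. The calls were made on these same arrays, so such agreement of lines and ranges follows in part from the choice. It gives the calls no separate support.

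These counts rest on few arrays. Without HS401 no feature passed the adjusted threshold (2051 at an unadjusted p under 0.05), without H9 only ANXA1 did, and without HS360 65 did. With the 6 normoxia arrays alone, 3 features were higher and 66 lower, and without the line as a block 1 was higher and 42 lower. The normoxia array of HS401 at 2 h had a lower quartile of 5.68, against 5.89 to 5.98 in the other 5 arrays compared here. Without it 45 features were higher and 96 lower, of which 42 and 96 were among those called with it. When the fibroblast level of each array entered the fit as a covariate none passed (2134 at an unadjusted p under 0.05), and that level is the mean of the collagen and fibroblast lists described below, whose genes are themselves among those called.

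The culture identity was checked first. The 10 hESC markers measured, among them POU5F1, SOX2, LIN28A, DPPA4, DNMT3B, PODXL and CDH1, averaged 10.39 to 10.77 per array at 2 h. At 7 d they averaged 10.56 to 10.75, and none passed the test in either direction. All 10 lay above the median feature (7.21) at 2 h and 9 did at 7 d. The exception was POU5F1, with a mean of 7.74 at 2 h and 6.78 at 7 d (-0.96, limma adjusted p = 0.272). LIN28A, an RNA-binding protein of pluripotent cells, was at 12.08, 11.74 and 12.14 in H9, HS360 and HS401 at 2 h and at 12.21, 12.07 and 12.28 at 7 d. The 14 fibroblast markers averaged 8.98, 9.94 and 9.25 in H9, HS360 and HS401 at 2 h and 7.70, 7.64 and 7.66 at 7 d. Of them 13 of 14 lay above the median feature (7.21) at 2 h and 8 of 14 still did at 7 d, and 11 of the 14 were lower. The fibroblast mean thus differed between the lines at 2 h and was nearly the same in them at 7 d. Markers of endothelial and blood cells (7 measured), neurons (4) and keratinocytes (2) had means of 5.55 to 5.89, 6.78 to 6.99 and 7.42 to 7.84 per array at 2 h and of 5.72 to 5.95, 6.85 to 7.08 and 7.62 to 7.86 at 7 d, with no member called.

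**Figure D1:**
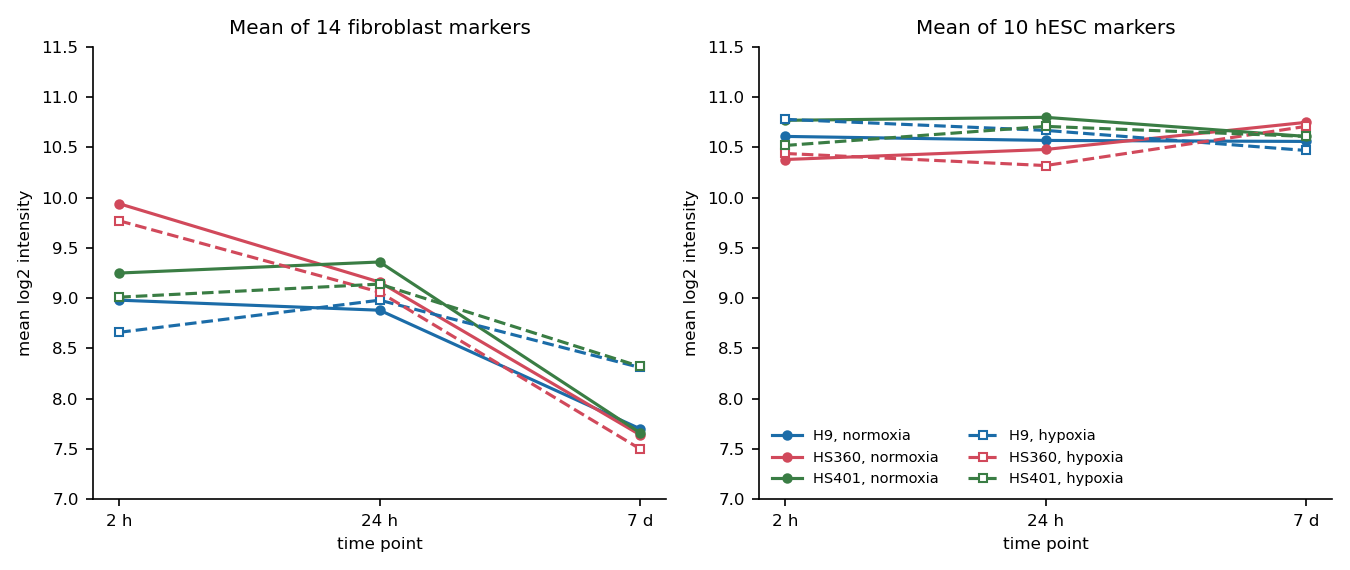
Mean log2 intensity of 14 fibroblast markers (left) and 10 hESC markers (right) against the time point, with 1 point per array, colours for the 3 hESC lines, solid lines for normoxia and dashed lines for hypoxia. In normoxia the fibroblast mean runs from 8.98 to 9.94 at 2 h and from 7.64 to 7.70 at 7 d, whereas the hESC mean stays above 10 on every array.

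Sequences before the transcription start are shown for called genes of the collagen, fibroblast, contractile, protease, cytokine, amino acid transport and YAP lists described below, to show what 2 of the 3 motifs searched look like where they occur. AP-1, the dimer of FOS and JUN proteins, is known to act on metalloproteinase and cytokine genes. It was searched for as TGANTCA, a loose pattern in which N is any base. TEAD, the DNA-binding partner of YAP, was searched for as GGAATG. Each motif was searched on both strands in the 250 bases before the start. The stretches are from RefSeq (GRCh38.p14), read 5′ to 3′ on the strand of the gene, with the motif in capitals and 54 bases each.
CXCL8, chr4:73740408-73740461, plus strand, AP-1: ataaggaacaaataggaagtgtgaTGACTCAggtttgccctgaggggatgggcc
MMP10, chr11:102780666-102780719, minus strand, AP-1: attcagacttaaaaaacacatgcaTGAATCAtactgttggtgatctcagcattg
SLC3A2, chr11:62881638-62881691, plus strand, AP-1: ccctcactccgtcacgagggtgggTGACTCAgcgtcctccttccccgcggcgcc
THBS1, chr15:39581009-39581062, plus strand, TEAD: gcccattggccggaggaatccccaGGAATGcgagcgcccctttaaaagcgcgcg
COL12A1, chr6:75206191-75206244, minus strand, TEAD: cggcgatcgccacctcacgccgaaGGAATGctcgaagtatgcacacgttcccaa
FBN1, chr15:48644999-48645052, minus strand, TEAD: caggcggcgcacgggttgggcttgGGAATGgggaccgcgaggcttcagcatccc
CALD1, chr7:134779416-134779469, plus strand, TEAD: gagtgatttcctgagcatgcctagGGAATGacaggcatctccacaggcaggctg

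The motif stood 137 bases before the start in CXCL8, 67 in MMP10, 37 in SLC3A2, 46 in THBS1, 167 in COL12A1, 58 in FBN1 and 194 in CALD1, counted to its first base. Promoters were found for 134 of the 187 lower features and 67 of the 97 higher ones. TGANTCA was in 11 of the 134 (8.21%) and 4 of the 67 (5.97%), against 6.6% of 27305 promoters in the table. GGAATG was in 15 of the 134 (11.2%) and 4 of the 67 (5.97%), against 11.9% of all promoters, and the CArG box of SRF was in 1 and 0, against 1.14%. The shares among lower genes were thus near those of all promoters, and a match is a description of the sequence and not of binding.

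The matrix metalloproteinases held the largest fall. MMP3 (stromelysin-1) was at 11.57, 11.97 and 11.78 in H9, HS360 and HS401 at 2 h, at 11.28, 11.86 and 11.68 at 24 h and at 7.82, 7.75 and 8.18 at 7 d. Every 7 d value lay over 3 log2 units below every earlier one. The difference was -3.86 ± 0.43 (limma SE, adjusted p = 0.00291), or 14.5-fold lower. This SE, like the others given with differences below, comes from the fit of all 18 arrays and is not the spread over the 3 lines. MMP1, the interstitial collagenase, was at 12.22, 12.10 and 12.19 at 2 h and at 9.99, 9.70 and 9.67 at 7 d, a difference of -2.38 ± 0.32 (adjusted p = 0.00495). MMP1 and MMP3 stood at almost the same level in the 3 lines at 2 h, unlike most other genes of the matrix. All 17 measured genes of the list of matrix proteases and their inhibitors had negative differences (median -0.97), and 7 were called lower: MMP1, MMP2, MMP3, MMP10, MMP14, the metalloproteinase inhibitor TIMP3 and the plasminogen activator PLAT. PLAT was at 9.15, 10.33 and 9.66 at 2 h and at 7.97, 8.32 and 8.01 at 7 d (-1.61, adjusted p = 0.0142). TIMP3 was at 10.34, 11.33 and 10.67 at 2 h and at 9.24, 9.70 and 9.04 at 7 d (-1.45, adjusted p = 0.0120). The ranges of the 2 time points did not overlap for 15 of the 17, while 4.42% of all features lay wholly lower at 7 d. The list was chosen with earlier results of these data known, so the count gives no separate support.

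Interstitial collagens were lower in 8 of 14 measured members, all 14 had negative differences and the median was -1.13. COL1A1, the major chain of type I collagen, was at 12.24, 12.79 and 12.48 in H9, HS360 and HS401 at 2 h and at 11.08, 11.32 and 10.98 at 7 d. Its groups did not overlap and the difference was -1.38 ± 0.18 (adjusted p = 0.00495), yet at 11.13 ± 0.17 (SD, n = 3) the 7 d level was still far above the median feature. COL6A3, a chain of the beaded-filament type VI collagen, was at 10.54, 11.40 and 10.92 at 2 h and at 8.85, 8.92 and 8.93 at 7 d (-2.05, adjusted p = 0.00551). COL12A1, a collagen that sits on the surface of fibrils, was at 8.60, 9.60 and 8.38 at 2 h and at 6.86, 7.28 and 6.74 at 7 d (-1.90, adjusted p = 0.0108). HS360 was the highest line at 2 h for 12 of the 14 collagens. COL3A1 (-1.64), COL1A2 (-1.45), COL6A2 (-1.36), COL6A1 (-1.16) and COL5A2 (-1.11) were the other members called, and COL8A1, COL14A1, COL15A1 and COL5A3 had differences of -0.19, -0.01, -0.08 and -0.13.

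Of 26 other fibroblast genes measured, 14 were lower and none higher (median -1.21). Decorin (DCN), a small proteoglycan that binds collagen fibrils, was at 9.97, 10.78 and 10.23 at 2 h and at 7.68, 7.65 and 7.42 at 7 d. All 3 lines came to about the same 7 d level, and the difference was -2.74 ± 0.38 (adjusted p = 0.00551). Tenascin C (TNC), a matrix glycoprotein, was at 10.50, 11.29 and 10.97 at 2 h and at 8.46, 8.83 and 8.66 at 7 d, with the smallest adjusted p of all features (-2.27 ± 0.22, adjusted p = 0.00139). FAP, the fibroblast activation protease, was at 6.97, 8.88 and 7.96 at 2 h and at 5.30, 5.41 and 5.47 at 7 d (-2.54, adjusted p = 0.0110). The lines were thus spread over nearly 2 log2 units at 2 h and stood together, well below the median feature, at 7 d.

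The mesenchymal transcription factors TWIST2 and PRRX1 fell with these matrix genes. PRRX1 was at 8.02, 8.91 and 8.15 at 2 h and at 6.49, 6.47 and 6.47 at 7 d (-1.88, adjusted p = 0.00855). TWIST2 was at 8.48, 9.33 and 8.30 at 2 h and at 6.76, 5.53 and 6.48 at 7 d (-2.45, adjusted p = 0.0397). PDGFRB, a receptor of platelet-derived growth factor on mesenchymal cells, was at 9.61, 10.23 and 9.57 at 2 h and at 8.36, 7.94 and 7.90 at 7 d (-1.74, adjusted p = 0.00743). FBN1 (fibrillin-1, of the microfibrils) differed by -1.81 and was called, whereas lumican (LUM, -1.45, adjusted p = 0.0992), periostin (POSTN, -1.56, adjusted p = 0.0757) and TBX15 (-0.26) were not.

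Further leading falls were of membrane and secreted proteins that mesenchymal cells are known to carry. CAV1, the coat protein of caveolae, was at 8.87, 10.63 and 9.18 at 2 h and at 7.20, 7.59 and 6.99 at 7 d (-2.30, adjusted p = 0.0107). ANXA1, a phospholipid-binding protein and the only gene called without H9, was at 8.96, 10.85 and 9.40 at 2 h and at 7.37, 7.86 and 6.40 at 7 d (-2.53, adjusted p = 0.00495, and 0.0431 without H9). ANPEP, the surface aminopeptidase CD13, was at 9.71, 11.20 and 10.35 at 2 h and at 7.91, 8.51 and 8.22 at 7 d (-2.21, adjusted p = 0.00666). In each of these the HS360 array was the highest at 2 h. CTSK, a collagen-cutting cathepsin (-2.44), GPNMB, a membrane glycoprotein (-2.36), CCDC80, a matrix protein (-2.31), GLIPR1 (-2.41) and PSG5, one of a family of near-identical pregnancy glycoproteins whose probes may be shared (-2.33), were called lower as well.

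**Figure D2:**
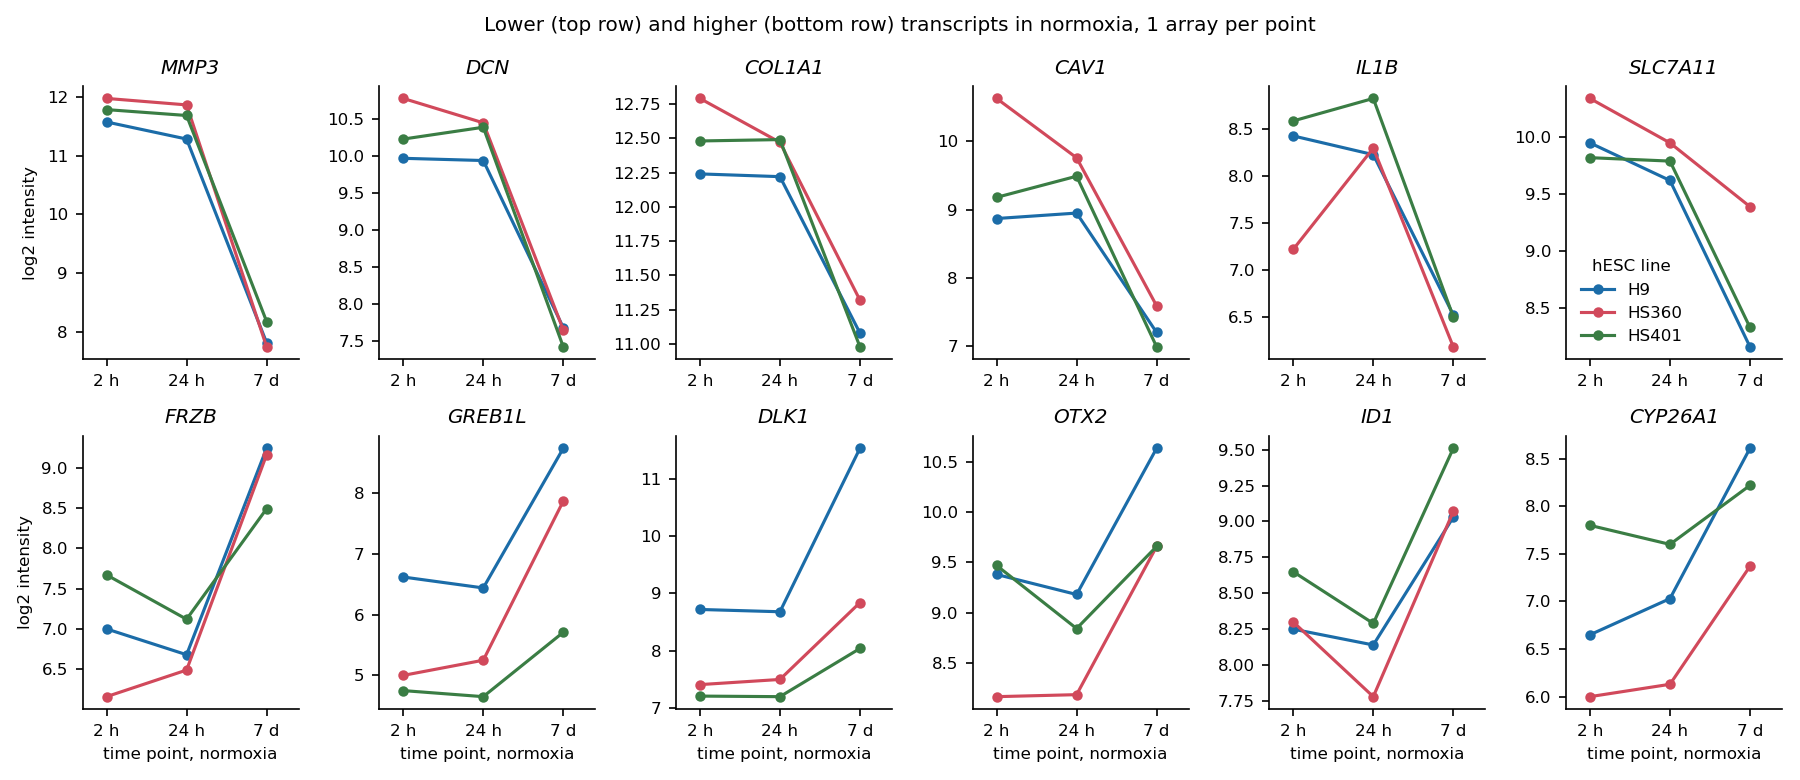
Log2 intensity of 12 called genes in normoxia at 2 h, 24 h and 7 d, with 1 point per array and lines joining the arrays of a hESC line; the vertical axes differ between panels. The 6 genes of the top row lie lower at 7 d than at 2 h and 24 h in every line, with MMP3 from 11.57 to 11.97 at 2 h and from 7.75 to 8.18 at 7 d, and the 6 of the bottom row lie higher, with FRZB from 6.16 to 7.67 at 2 h and from 8.49 to 9.24 at 7 d.

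In the lower features the lines differed mainly at the start. Among the 187 lower features, HS360 was the highest line at 2 h in 150 and showed the largest change in 138, against 10034 and 7216 of all 23536 features. The median range between the highest and the lowest line was 0.83 at 2 h and 0.44 at 7 d. Over all features it was 0.41 and 0.33. The SD over the lines was smaller at 7 d in 150 of 187 (13822 of all features). The median difference was -0.92 for H9, -1.38 for HS360 and -1.03 for HS401. At 24 h the median level of the 179 named lower features was 8.18, 8.54 and 8.64 in H9, HS360 and HS401, after 8.17, 8.98 and 8.59 at 2 h and before 7.16, 7.38 and 7.40 at 7 d. HS360 alone was lower at 24 h than at 2 h, and its fibroblast marker mean moved from 9.94 to 9.16 meanwhile.

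**Figure D3:**
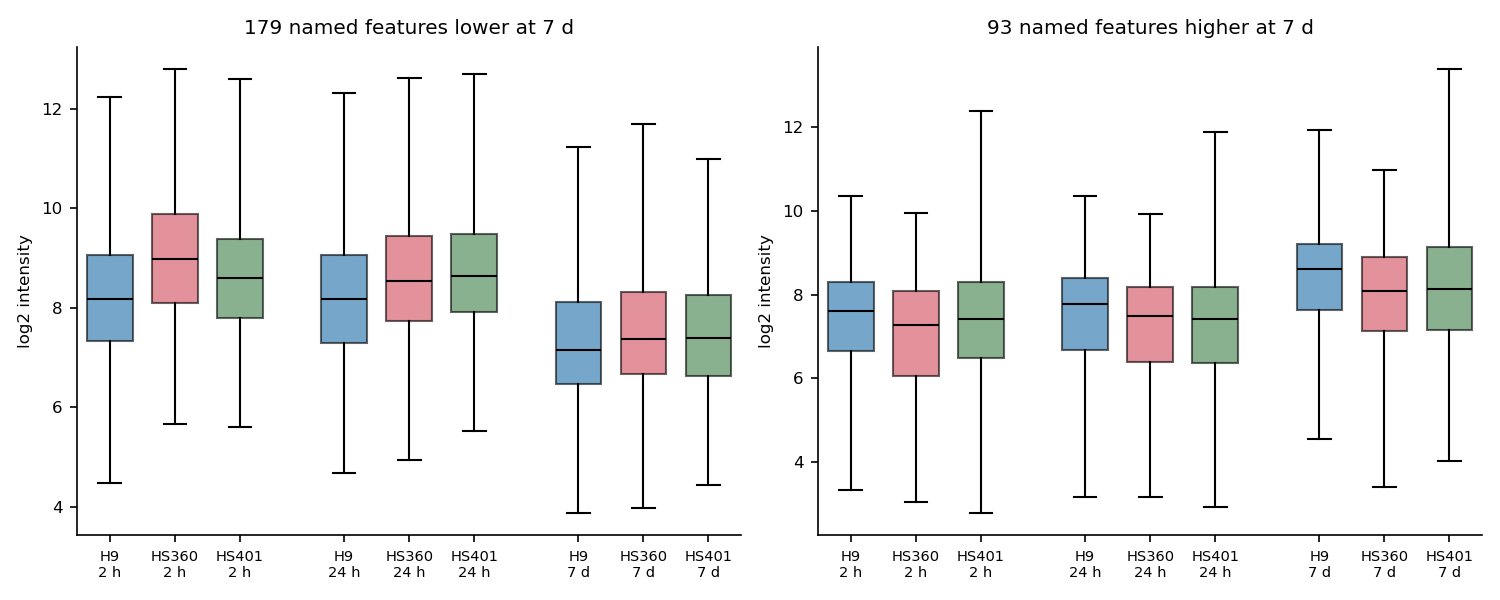
Log2 intensity of the named features called lower (left, 179) and higher (right, 93) at 7 d, per array of normoxia at 2 h, 24 h and 7 d; boxes span the quartiles, the line in a box is the median and whiskers reach the lowest and highest feature. The medians of the lower features are 8.17, 8.98 and 8.59 at 2 h and 7.16, 7.38 and 7.40 at 7 d in H9, HS360 and HS401, and those of the higher features go from 7.61, 7.27 and 7.43 to 8.61, 8.09 and 8.14.

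Laminins, integrins and basement membrane genes were lower in part. LAMA4, a laminin chain of mesenchymal and vascular basement membranes, was at 8.23, 9.42 and 8.57 at 2 h and at 6.61, 6.83 and 6.92 at 7 d (-1.95, adjusted p = 0.00666). The integrin subunits ITGB3 (-1.72), ITGA2 (-1.67) and ITGA3 (-0.90) and the laminin chain LAMC1 (-0.72) were lower too, so that 5 of 23 measured laminins, integrins and basement membrane genes were called and the median was -0.15. LAMA1 (0.53) and LAMA5 (0.17), chains of embryonic epithelial laminins, ITGA6 (0.10), COL4A1 (-0.15) and COL4A2 (-0.07) did not pass the test.

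Contractile genes had negative differences in 12 of 12 (median -0.59), of which only CALD1 (caldesmon) was called, at 9.77, 10.71 and 9.76 at 2 h and 8.96, 8.78 and 8.97 at 7 d (-1.18, adjusted p = 0.0357). ACTA2 (smooth muscle actin) differed by -1.16 (adjusted p = 0.142) and TAGLN (transgelin) by -1.07 (adjusted p = 0.0509). Of 15 genes known as targets of YAP, the coactivator of TEAD that answers to cell density and stretch, 3 were lower (median -0.26). THBS1 (thrombospondin-1) was at 12.22, 12.77 and 12.59 at 2 h and at 11.22, 11.68 and 10.96 at 7 d (-1.24, adjusted p = 0.0117), CRIM1 differed by -0.93 and NT5E, the surface enzyme CD73 that also stands in the fibroblast list, by -2.12. CCN1 and CCN2, the best known targets, differed by -0.88 (adjusted p = 0.133) and -0.80 (adjusted p = 0.190). HOX genes, whose pattern marks where in the body a fibroblast comes from, had a median of -0.03 over 17 measured and no call (HOXD10 at -0.33, adjusted p = 0.631).

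Inflammatory transcripts were lower at 7 d, but in another order of lines. IL1B (interleukin-1 beta) was at 8.43, 7.22 and 8.59 in H9, HS360 and HS401 at 2 h, at 8.23, 8.30 and 8.83 at 24 h and at 6.52, 6.18 and 6.50 at 7 d. HS360, the line with the highest stromal levels at 2 h, had the lowest IL1B there. The difference was -1.68 ± 0.22 (adjusted p = 0.00495), and against 24 h it was -2.05 (adjusted p = 0.00205). CXCL8 (interleukin-8) was at 8.03, 7.27 and 7.96 at 2 h and at 6.48, 6.31 and 6.08 at 7 d (-1.46, adjusted p = 0.0107). PTGS2, the inducible cyclooxygenase, was at 7.22, 6.05 and 7.56 at 2 h and at 5.49, 5.38 and 5.96 at 7 d (-1.33, adjusted p = 0.0134), and IL6 was at 6.94, 6.16 and 7.38 and then at 5.62, 5.49 and 6.22 (-1.05, adjusted p = 0.0334). IL6 was the only one of the 4 whose groups overlapped, by the 2 h value of HS360. These 4 were the called members of 20 chemokine and cytokine genes, 16 of which had negative differences (median -0.26). CCL2 (-0.20), CXCL12 (0.00 to 2 decimals) and NFKBIA (0.13), an early target of NF-kappa-B, did not pass. SPP1 (osteopontin), a secreted phosphoprotein, was at 10.09, 12.19 and 10.80 at 2 h and at 8.12, 10.06 and 10.54 at 7 d (-1.45, adjusted p = 0.0326), with a difference of -0.26 in HS401.

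A group of amino acid transporters fell as well. SLC7A11, the cystine importer xCT, was at 9.95, 10.34 and 9.82 at 2 h and at 8.16, 9.39 and 8.33 at 7 d, with no overlap and a difference of -1.41 ± 0.24 (adjusted p = 0.0113). SLC7A5, the importer of large neutral amino acids LAT1, was at 11.60, 12.11 and 11.63 and then at 10.20, 11.37 and 10.96 (-0.94, adjusted p = 0.0110). SLC3A2, the heavy chain that both importers share, was at 11.41, 11.62 and 11.46 and then at 10.77, 11.17 and 10.63 (-0.64, adjusted p = 0.0162). They are the 3 called members of 17 genes of amino acid transport and of ATF4, the transcription factor of amino acid shortage, and 15 of the 17 had negative differences (median -0.33). ATF4 itself differed by 0.07, ASNS by -0.39 and TRIB3 by -0.11, none past the test. Of 14 antioxidant genes, NQO1, a quinone reductase under NRF2, was the one called, at 8.52, 9.48 and 9.12 at 2 h and 7.61, 8.01 and 8.39 at 7 d (-1.04, adjusted p = 0.0300).

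**Figure D4:**
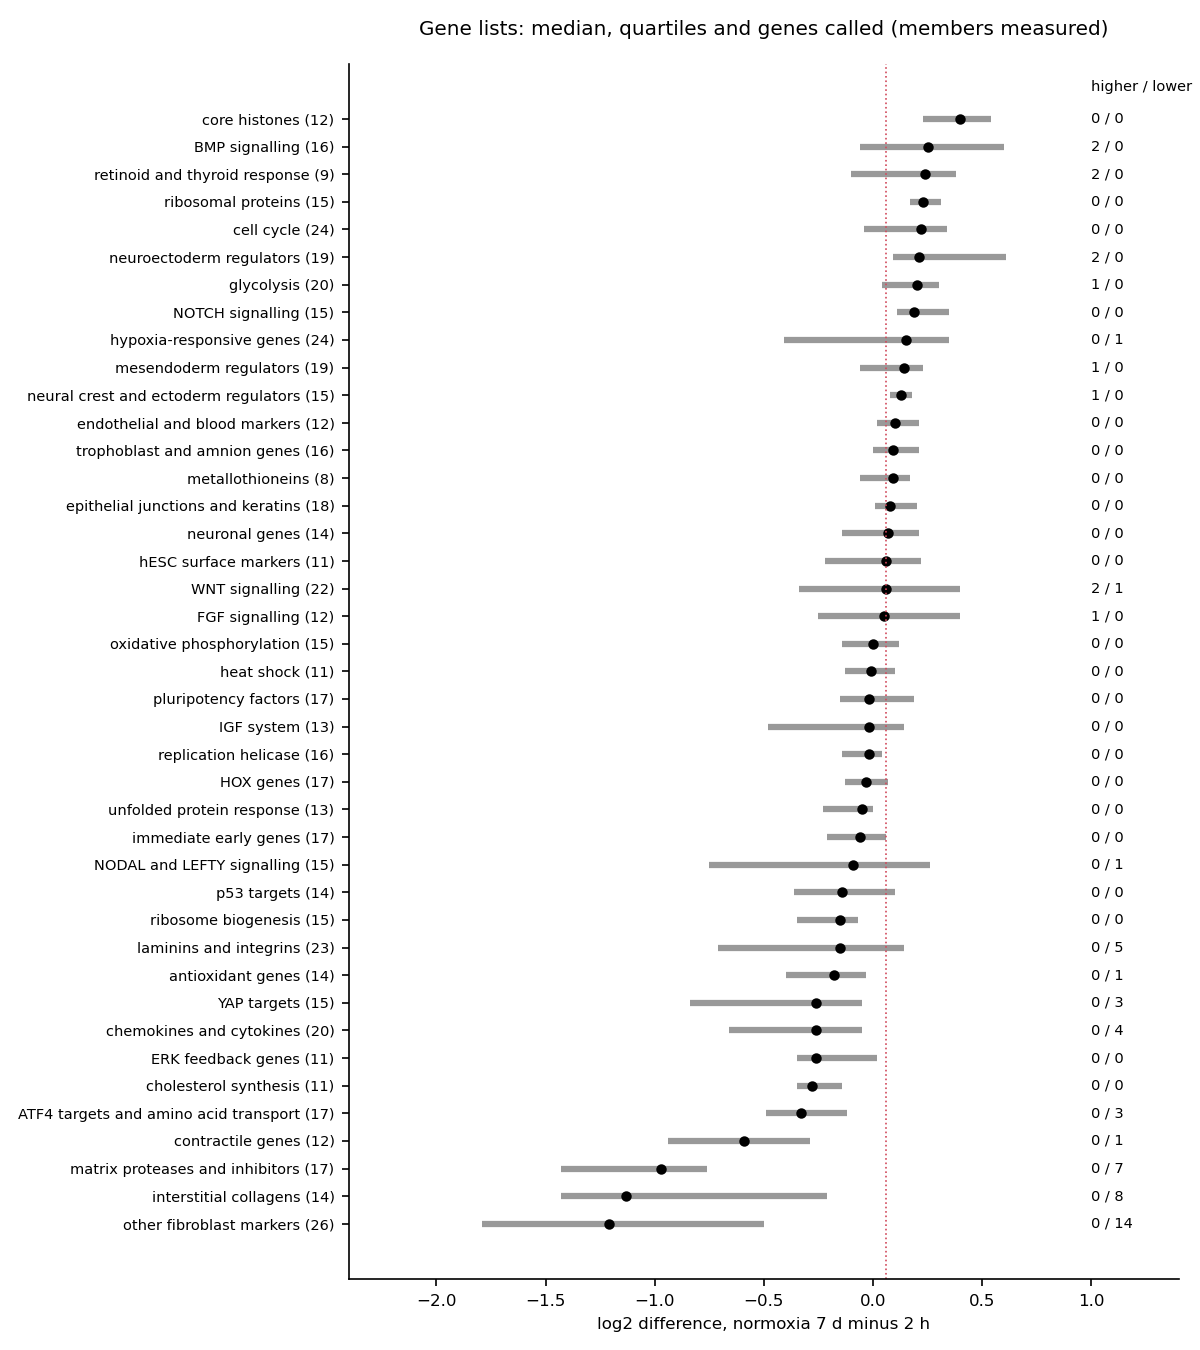
Median (points) and quartiles (bars) of the log2 difference, normoxia 7 d minus 2 h, over the measured members of 41 gene lists, with the number of members in brackets and the numbers called higher and lower on the right; the dotted line is the median of all features, 0.06. The fibroblast, collagen and protease lists lie lowest, at -1.21, -1.13 and -0.97, and the core histones highest at 0.40 with no member called.

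Of the 97 higher features 12 were in any list, and the largest rise was that of CST1, given with other unlisted genes below. FRZB, a secreted WNT antagonist, was at 7.00, 6.16 and 7.67 in H9, HS360 and HS401 at 2 h, at 6.68, 6.49 and 7.12 at 24 h and at 9.24, 9.16 and 8.49 at 7 d. Its groups did not overlap and the difference was 2.02 ± 0.36 (limma SE, adjusted p = 0.0151), 4.06-fold. By line the rise was 2.24, 3.0 and 0.82. SFRP1, a related secreted antagonist, was at 9.86, 9.26 and 8.43 at 2 h and at 10.78, 10.98 and 9.35 at 7 d (1.19, adjusted p = 0.0353). Of 22 WNT pathway genes measured these 2 were higher, and 1, the ligand WNT5A, was lower. WNT5A, of the branch of WNT signalling that does not use beta-catenin, was at 8.94, 9.87 and 9.34 at 2 h and at 7.31, 6.94 and 7.21 at 7 d (-2.23, adjusted p = 0.00546). The beta-catenin targets AXIN2 (-0.32), SP5 (0.09), LEF1 (0.18) and NKD1 (0.13) did not pass, and the list's median was 0.06, that of all features.

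Of the genes known from early neural tissue, DLK1, OTX2, FEZF1 and FEZF1-AS1 were called higher, the last 2 among the largest rises and in none of the lists. DLK1, an imprinted membrane protein related to NOTCH ligands, was at 8.72, 7.41 and 7.21 at 2 h and at 11.53, 8.84 and 8.04 at 7 d, with rises of 2.81, 1.43 and 0.83 (1.69 ± 0.30, adjusted p = 0.0151). OTX2, a homeobox factor of the forebrain and of the pluripotent epiblast, was at 9.38, 8.16 and 9.47 and then at 10.64, 9.66 and 9.66, with rises of 1.26, 1.5 and 0.19 (0.98, adjusted p = 0.0348). PAX6, a factor of neuroectoderm and eye, was at 6.07, 5.15 and 5.54 and then at 7.85, 5.69 and 6.17 (0.98, adjusted p = 0.0700), so that it missed the threshold against 2 h and passed it against 24 h (1.23, adjusted p = 0.0395). FEZF1, a zinc finger factor of the forebrain, was at 8.67, 7.80 and 6.99 at 2 h and at 11.27, 9.10 and 7.46 at 7 d (1.46, adjusted p = 0.0397). FEZF1-AS1, the long RNA gene beside it, was at 7.18, 6.16 and 5.0 and then at 10.60, 7.87 and 5.73 (1.95, adjusted p = 0.0299). Both kept the order H9, HS360, HS401 at each time, and the groups overlapped.

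Of 19 neuroectoderm regulators measured, DLK1 and OTX2 were called, 16 had positive differences and the median was 0.21. By line this median was 0.22 (H9), -0.09 (HS360) and 0.39 (HS401). SOX1 (0.11), HES5 (0.07) and SOX3 (0.07), early neural genes, and NES (-0.45) did not pass. Neuronal genes, of cells past the progenitor stage, had a median of 0.07 over 14 members and none called. Of 15 neural crest and ectoderm regulators MSX2 was the one higher, at 6.08, 5.63 and 6.04 at 2 h and 6.56, 6.39 and 7.43 at 7 d (0.88, adjusted p = 0.0334), and SNAI2, a factor that mesenchymal cells also carry, was at -1.52 (adjusted p = 0.0700). In HS401 the medians of the HOX, neural crest, trophoblast and endothelial lists were 0.42, 0.46, 0.48 and 0.48, against -0.20, -0.02, -0.15 and -0.05 in H9. The HS401 array at 2 h had the low lower quartile given above. The part of that array in these medians was not tested.

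Retinoid genes and genes of BMP signalling were higher in part. CYP26A1, which degrades retinoic acid and is induced by it, was at 6.65, 6.0 and 7.80 at 2 h and at 8.61, 7.37 and 8.22 at 7 d (1.25 ± 0.22, adjusted p = 0.0142). CRABP2, which carries retinoic acid to the nucleus, was at 7.81, 7.58 and 7.30 and then at 8.46, 8.24 and 8.14 (0.72 ± 0.12, adjusted p = 0.0131), with groups that did not overlap. They were the 2 called of 9 retinoid genes, and RARB (0.12), STRA6 (-0.10) and CYP26B1 (-0.45) did not pass. The ID proteins are targets of BMP signalling that block helix-loop-helix factors. ID1 was at 8.25, 8.30 and 8.65 at 2 h, at 8.14, 7.78 and 8.29 at 24 h and at 9.03, 9.07 and 9.51 at 7 d, and ID4 was at 7.92, 7.80 and 7.69 at 2 h and at 8.67, 8.83 and 8.39 at 7 d. The groups of both were apart (ID1 0.80 ± 0.14, adjusted p = 0.0117, and ID4 0.83 ± 0.13, adjusted p = 0.00898). ID2 had a larger difference, 1.39, from 7.05, 6.25 and 7.13 to 8.51, 7.79 and 8.31, with an adjusted p of 0.0568, and ID3 was at 0.25. Over 16 BMP genes 2 were higher and none lower (median 0.25), and the ligands BMP2 (0.25), BMP4 (0.27) and BMP7 (0.61) did not pass.

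NODAL, the ligand that sustains pluripotency in these cells, fell. It was at 8.01, 8.90 and 9.94 in H9, HS360 and HS401 at 2 h, at 8.01, 8.88 and 9.88 at 24 h and at 6.78, 8.14 and 8.01 at 7 d. Every line fell, by 1.23, 0.76 and 1.93, while the groups overlapped (-1.31 ± 0.26, adjusted p = 0.0228). Its antagonist and target LEFTY2 was at 9.16, 9.85 and 9.87 and then at 8.28, 8.52 and 9.26 (-0.94, adjusted p = 0.0766). LEFTY1 (-0.45) and CER1 (-0.96) did not pass, and FST, which binds activin, was at 0.82 (adjusted p = 0.107). Against 24 h FST passed the threshold (1.09, adjusted p = 0.0486). Of 15 genes in the list NODAL was the only one called against 2 h. Of 12 FGF genes the receptor FGFR3 was higher, at 8.14, 7.91 and 7.88 at 2 h and 8.75, 8.50 and 8.53 at 7 d (0.62, adjusted p = 0.0329), FGFR1 differed by 0.76 (adjusted p = 0.0585) and FGF2 by -0.27.

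None of 17 pluripotency factors was called (median -0.02). SOX2 was at 10.48, 10.07 and 10.18 at 2 h and at 11.13, 10.68 and 10.39 at 7 d (0.49, adjusted p = 0.212), and ZFP42 differed by -0.15 and DPPA4 by -0.02. POU5F1 (OCT4), which has several near-identical copies in the genome so that its probes are less certain, was at 7.48, 7.38 and 8.36 and then at 6.43, 7.26 and 6.65, a difference of -0.96 (95% confidence interval -1.71 to -0.21, adjusted p = 0.272). A miss of the threshold does not show that these levels were alike, and the interval for SOX2 ran from 0.14 to 0.84.

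The other leading rises were mixed in role. CST1, a secreted cysteine protease inhibitor with close relatives in its family, had the largest difference of all higher genes and a wide gap between lines, at 7.00, 6.08 and 12.39 at 2 h, at 9.16, 7.00 and 11.89 at 24 h and at 10.79, 9.5 and 13.39 at 7 d (2.74 ± 0.50, adjusted p = 0.0162). HS401 was already above the 7 d level of the other lines at 2 h. GREB1L, a developmental gene, was at 6.62, 5.0 and 4.75 and then at 8.74, 7.87 and 5.71 (1.98 ± 0.33, adjusted p = 0.0108). The long RNA gene KC6 was at 6.50, 5.06 and 7.08 and then at 8.22, 6.86 and 8.06, with the smallest adjusted p among the 15 leading rises (1.5 ± 0.20, adjusted p = 0.00495). GPC3, a cell surface heparan sulphate proteoglycan of the embryo, was at 10.37, 8.82 and 9.21 and then at 11.94, 10.80 and 9.58 (1.31, adjusted p = 0.0228). SESN3, an inhibitor of mTORC1 induced by FOXO factors, was at 9.35, 7.90 and 8.75 and then at 10.60, 9.86 and 9.61, with no overlap (1.36, adjusted p = 0.0325). ACTN3, an actin cross-linker of muscle, was at 7.61, 7.38 and 7.27 and then at 9.03, 8.74 and 8.08 (1.20, adjusted p = 0.00841). LIX1 (1.61), the sodium pump subunit ATP1B2 (1.23) and MEIOC, a gene of meiotic germ cells (1.20), were called higher, and FLRT3, a cell surface protein of early embryonic layers, is described with hypoxia below. H9 was the highest line at 2 h for 64 of the 97 higher features and at 7 d for 57, against 7666 and 5772 of all 23536 features. The median range of the 97 over the lines was 0.54 at 2 h and 0.73 at 7 d (0.41 and 0.33 over all features). Of them 33 had a smaller SD at 7 d (13822 of all features).

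Metabolic and housekeeping lists held few calls. ENO2, the neuronal enolase of glycolysis, was at 9.68, 8.42 and 9.46 at 2 h and at 10.66, 9.81 and 10.24 at 7 d (1.05, adjusted p = 0.0268), the 1 called of 20 glycolysis genes (median 0.20). Among 24 hypoxia-responsive genes NDRG1, a stress-induced protein, was lower, at 8.68, 8.54 and 8.13 and then at 7.50, 7.00 and 7.07 (-1.26, adjusted p = 0.0222), while VEGFA (0.15), EGLN3 (0.34) and BNIP3 (0.81) did not pass. Ribosomal proteins had 15 of 15 positive differences with a median of 0.23 and no call, and after median centring 14 of 15 were positive with a median of 0.19. Cell cycle genes (24, median 0.22), oxidative phosphorylation (15, median 0.00 to 2 decimals), the unfolded protein response (13, median -0.05), heat shock genes (11, median -0.01) and cholesterol synthesis (11, median -0.28) held no call. NOTCH signalling (15, median 0.19), core histones (12, median 0.40), trophoblast and amnion genes (16, median 0.09), metallothioneins (8, median 0.09) and epithelial junctions and keratins (18, median 0.08) held none either, nor did the IGF system (13, median -0.02), replication helicase (16, median -0.02), immediate early genes (17, median -0.06), p53 targets (14, median -0.14), ribosome biogenesis (15, median -0.15) and ERK feedback genes (11, median -0.26). FLRT3 was the 1 called of 19 mesendoderm regulators (median 0.14).

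The 7 d arrays were also compared with those of 24 h. On the schedule given above the 24 h plates were no older after seeding than the 2 h plates, so these arrays do not date the changes. Between 24 h and 2 h in normoxia limma called no feature (0.0% of those tested, 66 or 0.28% at an unadjusted p under 0.05). Between 7 d and 24 h, 46 features were higher (0.195%) and 95 lower (0.404%). Of the 97 and 187 features called against 2 h, 44 and 93 were also called against 24 h, where their medians were 0.69 and -0.98; both comparisons share the 7 d arrays. The normoxia array of HS401 at 24 h had a lower quartile of 5.64, as low as the 5.68 of its 2 h array. The 2 comparisons thus share a low quartile in the earlier array of HS401 as well. The medians of the features called against 2 h were 0.09 and -0.15 between 24 h and 2 h. Within a line the SD of the log2 differences over all features was 0.19 (H9), 0.26 (HS360) and 0.21 (HS401) between 24 h and 2 h, and 0.30, 0.42 and 0.46 between 7 d and 2 h. The 2 h and 24 h arrays of a line were thus more alike than either was to 7 d, and the fit takes its error in part from such pairs.

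Hypoxic cultures give the same time comparison on other arrays. There 375 features were higher (1.59%) and 385 lower (1.64%) at 7 d than at 2 h. Of the 187 features lower in normoxia, all 187 were negative in hypoxia and 88 were called there (47.1% of the normoxia calls and 22.9% of the hypoxia calls), with a median of -0.82. Of the 97 higher ones, 96 were positive and 42 were called (43.3% and 11.2%), with a median of 0.60. Over all features the median in hypoxia was 0.13, and 4468 were at an unadjusted p under 0.05 in limma. The share of all features with equal signs in the 2 comparisons was not counted, so the sign counts have no base beside them. The difference was smaller in hypoxia for 161 of the 187 and 74 of the 97. The comparison that chose these features was the normoxia one, so values in the other tend to be smaller. A test of the difference of the 2 changes called no feature (0.0%, 728 or 3.09% at an unadjusted p under 0.05, smallest adjusted p = 0.957).

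**Figure D5:**
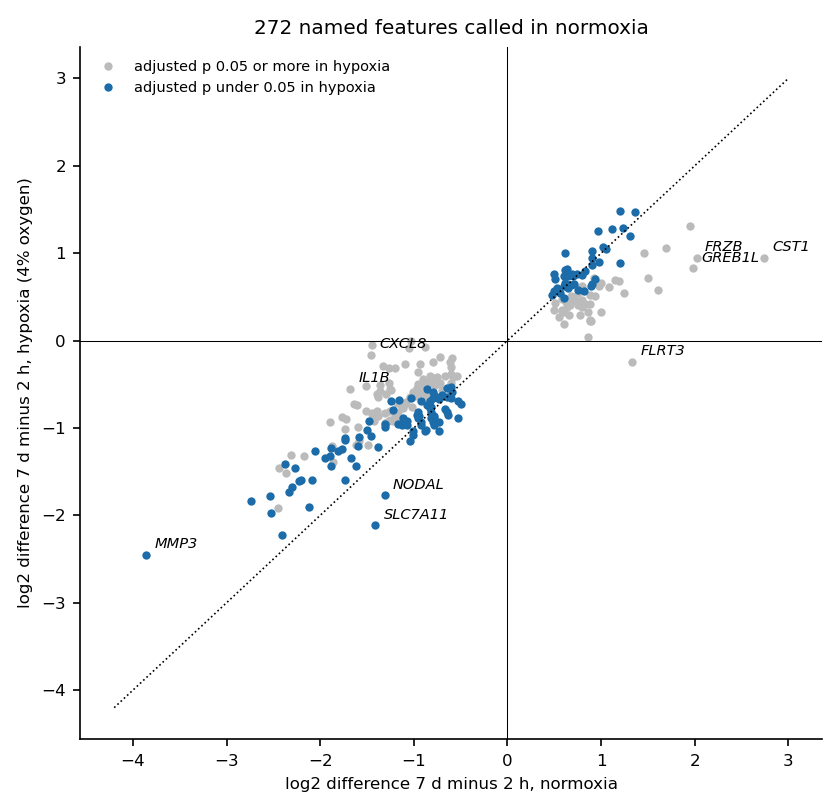
Log2 difference 7 d minus 2 h in hypoxia (4% oxygen) against that in normoxia for the named features called in normoxia (93 higher, 179 lower), with blue points for those with an adjusted p under 0.05 in hypoxia as well and the dotted line for equal differences. All points lie in the quadrants of equal sign apart from FLRT3, at 1.33 in normoxia and -0.24 in hypoxia.

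Single groups stood side by side as follows. MMP3 differed by -3.86 in normoxia and -2.45 in hypoxia (adjusted p = 0.00983), and SLC7A11 by -1.41 and -2.11 (adjusted p = 0.00155). IL1B, CXCL8, PTGS2 and IL6 differed by -1.68, -1.46, -1.33 and -1.05 in normoxia and by -0.55, -0.16, -0.29 and -0.08 in hypoxia, where none passed. GREB1L and FRZB differed by 1.98 and 2.02 in normoxia and by 0.83 and 0.95 in hypoxia, without a call there. NODAL was lower in both (-1.31 and -1.77), and the glypican GPC3 (1.31 and 1.20) was higher in both. The fibroblast marker mean at 7 d was 7.70, 7.64 and 7.66 in H9, HS360 and HS401 in normoxia and 8.31, 7.50 and 8.32 in hypoxia. H9 and HS401 thus had a higher fibroblast mean at 7 d in hypoxia and HS360 did not. At 2 h the mean was 8.66, 9.77 and 9.01 in hypoxia, below the 8.98, 9.94 and 9.25 of normoxia. The part of the fibroblast levels at either time in the smaller changes was not tested.

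The lines were also compared in the size of their change, over both oxygen levels and with the 2 h and 24 h arrays as the earlier time. Of all features 20 differed by limma's F test (0.085%, 4251 or 18.1% at an unadjusted p under 0.05). None of the 284 features called above was among the 20, while 72 of the 187 lower ones and 16 of the 97 higher ones were at an unadjusted p under 0.05. The fit that made the calls has no term for lines that change unequally, so unequal changes add to its error and hinder a call. The lack of overlap thus follows in part from the fits. DGKK, a diacylglycerol kinase, was at 6.42, 5.55 and 5.79 in H9, HS360 and HS401 in normoxia at 2 h and at 5.90, 6.07 and 7.51 at 7 d, with the smallest adjusted p (0.00318). DIO3, which inactivates thyroid hormone, was at 6.66, 6.68 and 7.64 and then at 7.20, 6.80 and 9.78 (adjusted p = 0.00710). ARHGAP24, a GTPase-activating protein, was at 5.89, 6.71 and 6.68 and then at 5.50, 5.34 and 7.49 (adjusted p = 0.00710). In all 3 HS401 stood above the other lines at 7 d.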

How the data were processed

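The study ran 18 Human Exon 1.0 ST arrays, with a single array for every combination of hESC line, oxygen and time. The authors made the deposited intensity values with RMA in Chipster and a Brainarray custom CDF summarized to Entrez genes, and no version is given in the sources used here. The deposited intensities are linear, and after log2 conversion they lie on a grid of 0.01. All 23536 features were kept, of which 20727 were named from the platform annotation with RefSeq symbols and 2809 stayed unnamed. No array pair held identical values.

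All 18 arrays were fitted with limma 3.58.1 in R 4.3.3, with 6 group means and the hESC line as a block (10 residual degrees of freedom, prior 4.24), so that groups share 1 estimate of spread. The line named in the labels pairs the arrays. Deviations from the group means correlated between the 7 d and 2 h arrays of a line at 0.39 (H9), 0.139 (HS360) and 0.206 (HS401). P-values are two-sided and Benjamini-Hochberg adjusted over all features. Intensities carry no read depth, and the precision is set by 3 arrays a group, which are 3 lines. The fit was also run on simulated data with known changes. Their noise was independent and every line changed alike, so that run does not check the error rate in these data. Promoters came from RefSeq (GRCh38.p14).

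Named genes are the 15 largest changes in each direction among called plain genes that moved alike in all lines, up to 4 past a threshold (otherwise 2) of each of 41 gene lists, the markers, and up to 5 in each direction of the hypoxia comparison and of the difference. Other list members are given as single differences, and the line comparison by its smallest adjusted p. Lists overlap. The members and lists were chosen with earlier results of these data known, so no list gives independent support. Alternatives covered the block, the arrays used, normalization, filters and covariates.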

Additional observations from a re-analysis of the deposited data

Results flagged for a closer look

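FLRT3, a cell surface protein of early embryonic layers, had differences of opposite sign in every line at the 2 oxygen levels. In normoxia it was at 7.23, 5.72 and 9.12 in H9, HS360 and HS401 at 2 h and at 8.36, 7.80 and 9.91 at 7 d, so that every line was higher (1.33 ± 0.24, adjusted p = 0.0141). In hypoxia every line was lower, with a difference of -0.24 (adjusted p = 0.568). The change in hypoxia minus that in normoxia was -1.57, with an unadjusted p of 0.000325 in limma and no call after adjustment over all features. FST, which binds activin, had the same signs at 7 d against 2 h, without a call at either oxygen level. In normoxia it was called higher against 24 h (1.09, adjusted p = 0.0486). The FST values that follow are against 2 h. Its differences in H9, HS360 and HS401 were 1.22, 0.84 and 0.41 in normoxia (0.82, adjusted p = 0.107) and -1.29, -0.41 and -0.44 in hypoxia (-0.71, adjusted p = 0.102), and the change in hypoxia minus that in normoxia was -1.54 (unadjusted p of 0.000281 in limma). MYC, a transcription factor of growth, had the reverse signs, with -0.68, -0.80 and -0.21 in normoxia (-0.56, adjusted p = 0.0902) and 0.75, 0.15 and 0.59 in hypoxia (0.50, adjusted p = 0.0822), a change of 1.06 in hypoxia minus normoxia (unadjusted p of 0.000169 in limma). The adjusted p of this difference was 0.957 for FLRT3, FST and MYC alike.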

How the results depend on the processing

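The count of 284 features became 43 without the line as a replicate block, 155 with the line as a random block, 69 with only the 6 arrays compared, 173 with the 9 normoxia arrays, 141 when the HS401 array of normoxia at 2 h was left out, 1 when the 5 arrays with the lowest lower quartiles were, 1276 with the lower quartile as a covariate, 484 against the mean of 2 h and 24 h, and 0 with the fibroblast level as a covariate (2134 at an unadjusted p under 0.05). That covariate is the mean of the collagen and fibroblast lists, which hold called genes themselves, TWIST2 and COL5A2 among them, and with it TWIST2, CALD1 and COL5A2 turned to differences of 0.10, 0.09 and 0.12. With one line left out the count ranged from 0 to 65. The 617 features past the study's thresholds became 363 without the block and 382 with the fibroblast covariate, and 503 to 602 with a line left out. The other normalizations, filters and variance models gave 264 to 410 features. For 7 d against 24 h, 141 features became 24 without the block, 580 with the quartile covariate and 0 to 67 with a line left out. For hypoxia, 760 became 134 without the block, 1269 after a second quantile normalization, 1261 with features above the median level only and 0 to 178 with a line left out. The line test gave 81 features with the quartile covariate and 799 among features above the median level, instead of 20; these 2 settings were chosen after seeing the data. The causes were not tested. The 24 h against 2 h comparison and the difference between oxygen levels gave 0 features under each alternative run.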
